A study of Mus musculus with 13 samples.

Results

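Photoreceptor precursors, the newborn cells of the postnatal retina that will become rods and cones, were described here by where the transcriptional regulator BLIMP1 was found on their chromatin. The data were lists of ChIP-seq summits, the single positions at which a peak of immunoprecipitated DNA was called, with no height or score. Neighbouring summits of the 12 ChIP libraries were joined into 1 region where no gap exceeded 200 bp, and bound means here that a summit of each of the 2 libraries of a cell type fell in the region. This gave 7868 regions bound in photoreceptor precursors, out of 155003 merged regions and 41901 bound in at least 1 of the 6 cell types. The other 5 cell types were germ cell precursors made in culture and taken after 2 or 6 days (d2 PGCLC, d6 PGCLC), primordial germ cells of E12.5 embryos (E12.5 PGC), the intestinal epithelium of E16.5 embryos, and plasmablasts obtained from B cells by 3 days of stimulation.

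Every group, controls included, was C57BL/6 with EGFP knocked into both alleles of the gene for BLIMP1 at the protein's N terminus, and the antibody (ab290) was against GFP. The photoreceptor precursors came from retina at postnatal day 4 and were sorted for GFP alone, so the labels define them by BLIMP1 and not by a second marker. The sort used KIT for d2 PGCLC, SSEA1 alone for E12.5 PGC, and SSEA1 together with integrin beta-3 for d6 PGCLC. Intestinal cells were positive for GFP and EPCAM, plasmablasts for GFP and CD138. The 2 photoreceptor precursor libraries used 8.8 and 9.2 cells in units of 1e5 and gave 10861 and 13955 summits on the chromosomes used. The other 10 libraries gave between 7998 and 76185. For E12.5 PGC, 1 male and 1 female library stood in as the 2 libraries of the cell type. The sources used here give neither read depth nor the calling threshold, and their part in the length of a list, and in every number of regions or genes below, was not tested. Whether the replicates are separate animals, and how many were pooled, is not in the labels.

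BLIMP1 is the zinc-finger product of Prdm1. It recruits chromatin modifiers and mostly acts as a repressor. In the newborn mouse retina it is made for a short time in cells that have just left the cell cycle, downstream of the homeodomain protein OTX2, and its loss turns many future photoreceptors into bipolar-like cells. CRX and OTX2 switch on photoreceptor genes through a shared motif, while BLIMP1 was first known as a repressor of interferon genes and has a motif that resembles that of interferon regulatory factors.

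The 3 genes that mark the cells, Crx, Neurod1 and Prph2, all had summits of both photoreceptor precursor libraries near the transcription start. At Crx, which encodes the homeodomain activator of rod and cone genes, the nearest summits lay 34 and 92 bp upstream of the start in replicates 1 and 2. At Prph2, the outer segment disc protein peripherin 2, they lay 82 and 81 bp upstream. At Neurod1, a bHLH factor needed for photoreceptor survival, they lay 330 and 329 bp upstream. None of the 10 other libraries came within 1 kb of the ends of these 3 genes; the nearest was 1638 bp from Crx, in d6 PGCLC replicate 1, the library with the longest list. A summit at a gene shows binding, not its RNA.

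The sequences around these summits and around those of other photoreceptor genes are shown as examples, with and without them, of 2 motifs that are counted over all promoters below. They are stretches of RefSeq promoter windows (GRCm38.p6, the coordinates of mm10), given 5′ to 3′ on the gene's strand and ending upstream of the listed start. Each spans the nearest summits of both photoreceptor precursor libraries, and capitals mark TAATCC, the core recognised by OTX2 and CRX, and GAAAGT, a part of the BLIMP1 motif, on either strand (GGATTA and ACTTTC on the other). No other library had a summit in these 10 promoter windows, which were chosen with their sequences known, so the number with a motif is a description only.

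Crx, chr7:15879958-15880078, minus strand: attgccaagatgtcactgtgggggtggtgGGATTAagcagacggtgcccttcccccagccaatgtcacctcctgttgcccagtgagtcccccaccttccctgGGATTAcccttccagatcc

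Prph2, chr17:46910336-46910456, plus strand: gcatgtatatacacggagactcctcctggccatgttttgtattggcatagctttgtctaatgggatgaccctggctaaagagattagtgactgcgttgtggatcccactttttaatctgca

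Samd7, chr3:30746119-30746239, plus strand: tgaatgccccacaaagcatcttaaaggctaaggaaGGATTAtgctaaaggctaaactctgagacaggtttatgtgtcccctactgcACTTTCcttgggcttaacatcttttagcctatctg

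Samd11, chr4:156255460-156255580, minus strand: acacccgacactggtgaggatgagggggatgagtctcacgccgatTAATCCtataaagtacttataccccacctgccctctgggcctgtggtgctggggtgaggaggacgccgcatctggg

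Rbp3, chr14:33953875-33953999, plus strand: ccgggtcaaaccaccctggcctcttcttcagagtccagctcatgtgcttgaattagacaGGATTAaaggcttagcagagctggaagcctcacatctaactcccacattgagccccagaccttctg

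Gucy2e, chr11:69237039-69237159, minus strand: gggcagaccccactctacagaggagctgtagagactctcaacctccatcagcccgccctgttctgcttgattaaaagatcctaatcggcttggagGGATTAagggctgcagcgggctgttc

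Abca4, chr3:122044367-122044459, plus strand: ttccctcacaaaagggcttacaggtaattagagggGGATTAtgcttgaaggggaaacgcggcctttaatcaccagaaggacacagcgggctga

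Sag, chr1:87803538-87803658, plus strand: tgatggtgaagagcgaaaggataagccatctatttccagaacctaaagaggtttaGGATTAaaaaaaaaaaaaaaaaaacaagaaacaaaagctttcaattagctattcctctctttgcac

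Rpgrip1, chr14:52110730-52110850, plus strand: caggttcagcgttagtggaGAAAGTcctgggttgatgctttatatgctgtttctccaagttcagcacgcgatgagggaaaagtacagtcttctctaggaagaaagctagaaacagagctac

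Slc24a1, chr9:64951621-64951734, minus strand: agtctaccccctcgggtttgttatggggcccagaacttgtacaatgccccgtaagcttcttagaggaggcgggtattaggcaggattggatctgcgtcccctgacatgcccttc

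Crx held the OTX2 and CRX core 2 times in its stretch, and Samd7, Samd11, Rbp3, Gucy2e, Abca4 and Sag held it 1 time each. Rpgrip1, which encodes a protein of the connecting cilium, held GAAAGT 1 time in its stretch, as did Samd7. The Rpgrip1 window held TAATCC 1 time outside the stretch shown. This window is at an internal start, and 6 other libraries had a summit within 1 kb of the ends of Rpgrip1. The Prph2 and Slc24a1 stretches held neither motif. Samd7 and Samd11 encode rod-enriched partners of a Polycomb complex, Rbp3 the retinoid carrier of the matrix around photoreceptors, Gucy2e the guanylate cyclase that restores cGMP after light, Abca4 the flippase of outer segment discs and Sag the rod arrestin. The summits of the 2 libraries lay 118 and 14 bp upstream of the start at Rbp3, 38 and 116 bp at Gucy2e, 42 and 23 bp at Abca4 and 130 and 33 bp at Sag.

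For contrast, 3 promoters at which both libraries of all 6 cell types had a summit are shown in the same way. Rfx5 encodes a regulator of MHC class II genes, Trim26 an E3 ligase of the MHC region and Serpinb9 an inhibitor of granzyme B.

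Rfx5, chr3:94953956-94954076, plus strand: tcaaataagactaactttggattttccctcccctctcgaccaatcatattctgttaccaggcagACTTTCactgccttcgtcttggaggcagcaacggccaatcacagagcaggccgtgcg

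Trim26, chr17:36836923-36837043, plus strand: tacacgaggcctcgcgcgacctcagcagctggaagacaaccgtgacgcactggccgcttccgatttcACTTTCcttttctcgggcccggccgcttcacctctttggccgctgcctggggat

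Serpinb9, chr13:33004439-33004540, plus strand: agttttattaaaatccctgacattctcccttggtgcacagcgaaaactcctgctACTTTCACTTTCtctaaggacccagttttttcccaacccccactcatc

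These 3 stretches held GAAAGT 1, 1 and 2 times and no TAATCC. At Rfx5 both photoreceptor precursor libraries had their summit 92 bp upstream of the start. At Grm6, the metabotropic glutamate receptor of ON bipolar cells, the summits of photoreceptor precursors lay 120 and 177 bp upstream and 7 other libraries also had a summit in the window.

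Grm6, chr11:50850476-50850596, plus strand: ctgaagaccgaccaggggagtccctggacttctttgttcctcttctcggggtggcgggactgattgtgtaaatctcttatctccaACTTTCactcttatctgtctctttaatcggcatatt

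Over all promoters of the table the motifs were counted in windows of 300 bp, from 250 bp before to 50 bp after a listed start, on both strands. Of 21238 windows, 732 (3.45%) held a summit of both photoreceptor precursor libraries, and 71 (0.334%) of these held no summit of any other library. TAATCC was present in 6.42% of all windows, in 8.74% of the 732 (95% Clopper-Pearson interval 6.80 to 11.03), in 26.8% of the 71 (16.9 to 38.6) and in 6.81% of the 661 shared with a library of another cell type (5.01 to 9.004). GAAAGT went the other way. It was present in 13.5% of all windows, 34.0% of the 732 (30.6 to 37.6), 14.1% of the 71 (6.97 to 24.4), 36.2% of the 661 (32.5 to 39.95) and 80.2% of the 86 windows with summits of both libraries of all 6 cell types (70.2 to 88.0). Intervals cover counting error only, and some windows of 1 gene overlap.

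Where TAATCC was present in photoreceptor-only windows it lay close to the summit. In these 19 windows the median distance from the motif to the nearest photoreceptor precursor summit was 7 bp, and 17 lay within 50 bp. In the 69 windows of all 6 cell types with GAAAGT the median was 13 bp, and 62 lay within 50 bp. In the 45 shared windows with TAATCC the median was 49 bp, and 25 lay within 50 bp. For GAAAGT it was 43 bp in the 10 photoreceptor-only windows, with 5 within 50 bp, and 20 bp in the 239 shared windows, with 191 within 50 bp. The difference between motifs was not tested. These are descriptions of letters in a window and not of binding sites.

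Part of the TAATCC count came from the known photoreceptor genes. Lists of photoreceptor genes (105 genes, below) had 108 windows in the table, of which 25 (23.1%) held TAATCC whether bound or not. Among the 71 photoreceptor-only windows, 14 belonged to these lists and 10 of them (71.4%) held it, while 9 of the other 57 (15.8%) did, against 6.34% of all windows outside the lists. With a summit in either photoreceptor precursor library in place of both, the share with TAATCC in photoreceptor-only windows was 16.2%, and with replicate 1 or replicate 2 alone it was 17.6% to 18.7%. The share with GAAAGT in the photoreceptor precursor windows was 22.3% with a summit in either library, beside 34.0% with both. With a single replicate it was 24.9% to 26.4%.

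**Figure D1:**
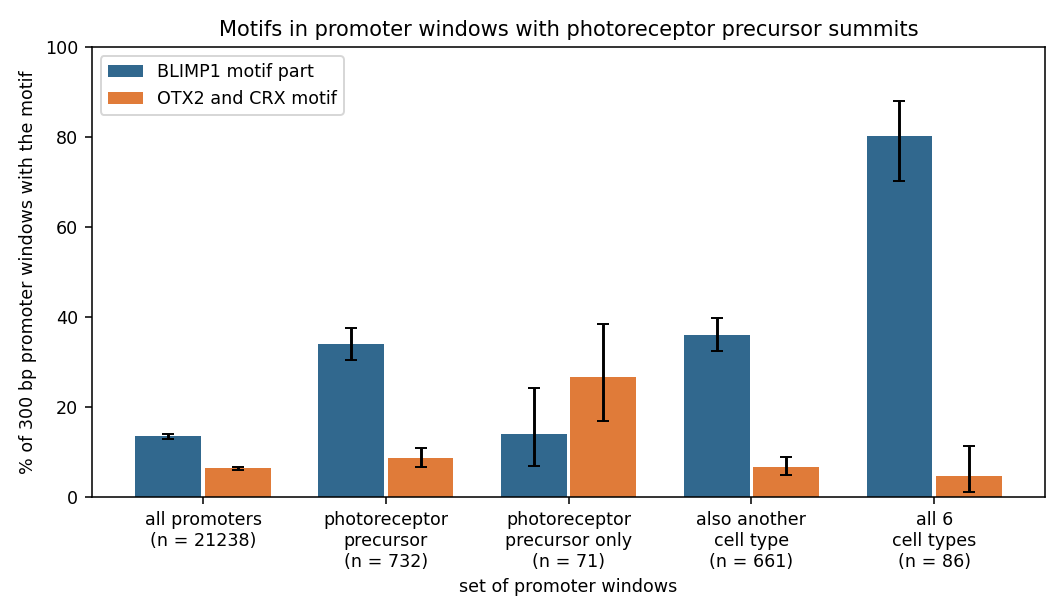
Share of 300 bp promoter windows that hold a part of the BLIMP1 motif (blue) or the OTX2 and CRX motif (orange), for all windows and for sets of windows with photoreceptor precursor summits. Error bars are 95% Clopper-Pearson intervals, and the BLIMP1 part was in 14.1% of photoreceptor-only windows and 80.2% of windows of all 6 cell types, the OTX2 and CRX motif in 26.8% and 4.65%.

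The other parts of the BLIMP1 motif and the related interferon element were also most frequent in the windows of all 6 cell types. TGAAAG, which overlaps GAAAGT by its last letters, was in 15.7% of all windows, 20.9% of photoreceptor precursor windows, 12.7% of the photoreceptor-only ones and 43.0% of those of all 6 cell types. GTGAAA, which overlaps both, was in 12.1%, 18.99%, 12.7% and 40.7%. AANNGAAA, the core of the interferon regulatory factor element, was in 21.7%, 28.0%, 23.9% and 50% of the same sets. CAGATG, a NEUROD1 motif, was in 14.6% of all windows and 12.7% of the photoreceptor-only ones. The median number of CpG in a window was 13 over all windows, 15 in the photoreceptor-only set and 24 in the shared set, and its part in the motif counts was not tested.

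Across the genome, 1839 of the 7868 regions (23.4%, 95% interval 22.4 to 24.3) were at most 1 kb from where a protein-coding gene begins or ends, called near a gene end below. With strand taken from the promoter table where it lists one, and internal starts included, 1700 of the 7868 (21.6%) were near a start. Another 86 (1.09%) were near a 3′ end only. These counts do not divide the 1839, since genes without a listed strand could not enter through their ends. Inside the span of a protein-coding gene lay 4373 regions (55.6%), and 851 (10.8%) were more than 100 kb from any protein-coding gene. Within a bound region the summits of the 2 libraries were a median of 39 bp apart, and 80.8% of regions had them within 100 bp.

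The regions ranged from those of photoreceptor precursors alone to those of every cell type. Restricted regions, with no summit in any of the 10 other libraries, numbered 3422 (43.5%), and 1093 (13.9%) were bound in all 6 cell types. Counting a summit in any library, 736, 635, 723, 630 and 1722 regions had summits in 2, 3, 4, 5 and 6 cell types. The restricted share was 51.8% in plasmablasts and 18.6% in intestinal epithelium, and between 2.91% and 7.08% in the 3 germ-lineage cell types. The germ-lineage cell types were counted against each other here, and the part of this in their shares was not tested. Only 6.11% of the restricted regions were near a gene end, against 36.7% of the photoreceptor precursor regions found in another cell type. The median distance to a gene end was 32523.5 bp in the restricted set and 3922 bp in the other. Restricted regions also lay farther out in the other cell types, with medians of 16208 and 5895 bp in intestinal epithelium and 7665 and 2587 bp in plasmablasts. With a summit in either library counted as bound, 16708 regions were bound in photoreceptor precursors and 8133 were restricted. Without replicate 1, 13817 were bound and 6671 restricted, and without replicate 2, 10759 and 4884.

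Plasmablasts held the greatest share of photoreceptor precursor regions. Both plasmablast libraries had a summit in 34.4% of them (95% interval 33.3 to 35.5), and both d2 PGCLC libraries in 27.7% (26.7 to 28.7). The share was 26.6% (25.7 to 27.6) for d6 PGCLC, 24.1% (23.2 to 25.1) for E12.5 PGC and 22.4% (21.5 to 23.3) for intestinal epithelium. The order moves with the list of each library: with a summit in either library of the other cell type d6 PGCLC came first with 47.1%, and without d6 PGCLC replicate 2 its share was 44.9%. Without photoreceptor precursor replicate 1 the intestinal share was 15.1%. Seen from the other side, photoreceptor precursors held 35.5% of the intestinal regions, 24.7% of those of E12.5 PGC, 18.4% of d6 PGCLC, 18.2% of d2 PGCLC and 11.7% of plasmablasts, the cell type with the most regions (23218). Regions with a summit in only 1 photoreceptor precursor library (8840) were found less often elsewhere, at 5.78% in intestinal epithelium and 18.9% in plasmablasts.

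The share found in plasmablasts varied most with distance to a gene. Of the regions within 1 kb of a gene end, plasmablasts held 65.4%, against 32.7% to 38.2% for the other 4. Beyond 100 kb from a gene end plasmablasts held 19.02%, within the range of 14.6% to 20.3% of the other 4. Over the same bins the restricted share went from 11.4% to 36.8%, 50.8%, 56.9%, 56.8% and 63.6%, and the share bound in all 6 cell types from 20.1% to 9.66%. Regions bound in photoreceptor precursors and both libraries of exactly 1 other cell type, with no summit elsewhere, numbered 148 with plasmablasts, 12 with d2 PGCLC, 10 with intestinal epithelium, 8 with d6 PGCLC and 4 with E12.5 PGC.

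**Figure D2:**
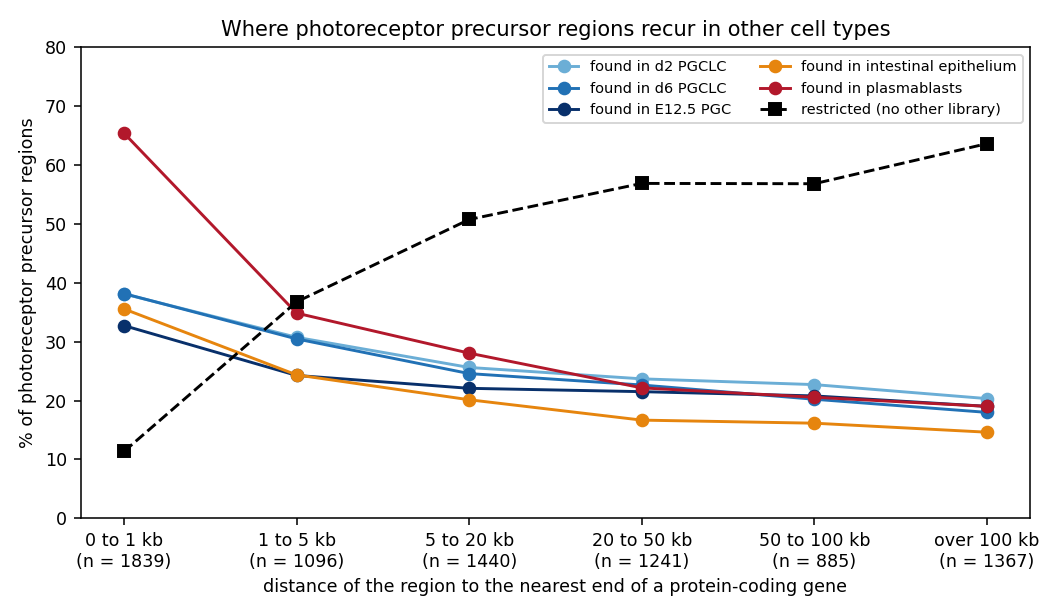
Share of photoreceptor precursor regions found in both libraries of each other cell type (coloured lines) or in no other library (black dashed line), by distance of the region to the nearest end of a protein-coding gene, with the number of regions under the axis. The restricted share was 11.4% within 1 kb and 63.6% beyond 100 kb, and the plasmablast share 65.4% and 19.02%.

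Per library, the share of summits near a gene end was 24.2% and 23.4% in the photoreceptor precursors (mean 23.8% ± 0.570, SD, n = 2). In the other 10 libraries it ran from 13.2% to 29.8% (mean 19.6% ± 7.34). The difference of 4.13 percentage points was no larger than the spread between libraries (exact permutation test over 66 choices of libraries, two-sided, p = 0.455, adjusted p = 0.485 over 3 shares; the smallest p possible was 0.0152). Its direction depended on the cell types compared. Against the 4 intestinal and plasmablast libraries alone the difference was -4.24 points (exact permutation p = 0.0667, the smallest that design allows). Summits inside genes made up 42.0% ± 0.467 in photoreceptor precursors and 43.3% ± 2.07 elsewhere (exact permutation p = 0.424, adjusted p = 0.485), and summits over 100 kb from a gene 10.9% ± 0.120 and 8.89% ± 3.28 (exact permutation p = 0.485, adjusted p = 0.485). Libraries of 1 cell type are not independent of each other, and the p-values measure only the spread between these libraries, which may be technical.

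Of 21887 protein-coding genes, 2118 (9.68%) were bound in photoreceptor precursors, meaning a summit of each library at most 1 kb from an end of the gene. Plasmablasts had 39.7% of genes bound, d6 PGCLC 9.72%, d2 PGCLC 8.41%, the intestine 7.29% and E12.5 PGC 5.79%. A summit of either photoreceptor precursor library was near 3736 genes, replicate 2 alone gave 3183 and replicate 1 alone 2671. Of the 2118 genes, 219 (1% of all genes tested) were bound in no other cell type and 498 in all 6. Plasmablasts shared 82.9% of the 2118, which was 20.2% of their own bound genes, and intestinal epithelium 41.7%, which was 55.4% of its own. Only 44 genes (0.201% of all genes) were bound in photoreceptor precursors with no summit of another library within 5 kb of an end.

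The 4 lists of photoreceptor genes, for transcription factors, phototransduction, the outer segment with its cilium and matrix, and the ribbon synapse, held 105 genes, and 36 of them (34.3%) were bound in photoreceptor precursors, beside 9.68% of all genes. In the other cell types 7 (6.67%, d2 PGCLC), 12 (11.4%, d6 PGCLC), 6 (5.71%, E12.5 PGC), 8 (7.62%, intestinal epithelium) and 24 (22.9%, plasmablasts) of the 105 were bound. Of all genes these cell types had 8.41%, 9.72%, 5.79%, 7.29% and 39.7% bound, in the same order. Of the 36 genes, 24 (66.7%) were bound in no other cell type, beside 219 of the 2118 bound genes (10.3%). Bound in no other cell type still allows a summit of a single other library: 17 of the 24, and 83 of the 219, had none within 1 kb. Counting the gene span and 5 kb around it, 70 of the 105 (66.7%) were bound, beside 21.9% of all genes, and in those stretches 89 of 128 bound regions (69.5%) were restricted, beside 35.0% over all genes. With listed internal starts added to the gene ends, 44 of the 105 were bound, beside 11% of all genes. The lists were chosen with earlier results of these data known, so these counts describe the genes and test nothing.

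Among the transcription factors, 9 of 20 (45%) were bound, beside 9.68% of all genes. In the gene span and 5 kb around it 19 of 20 (95%) were, beside 21.9% of all genes. Crx, Neurod1, Samd7, Samd11 and Rorb, the orphan receptor that acts upstream of Nrl, were bound in photoreceptor precursors only. Samd7 had 3 regions within 5 kb of its ends, all restricted, with summits 139 and 88 bp upstream of the start. Casz1, a zinc-finger factor of retinal progenitors and rods, had 5 regions within 5 kb of its ends and 11 in its span, 6 of them restricted, and was bound in 2 cell types in all. Rax, Sall3 and Rxrg were bound in 2, 3 and 5 cell types. The summits of the 2 libraries at Rxrg lay in separate regions.

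Several regulators central to the rod and bipolar choice had summits outside the 1 kb window or in 1 library only. Otx2 was bound by its listed start, with summits 197 bp downstream in replicate 1 and 374 bp upstream in replicate 2, but not by the gene ends. By its ends Otx2 was bound in d2 PGCLC only, and 6 other libraries had a summit within 5 kb. At Nrl, the leucine zipper factor that specifies rods, the nearest summits lay 2624 and 751 bp upstream of the listed start. At Nr2e3, the receptor that represses cone genes in rods, they lay 1172 and 1155 bp upstream, and the nearest summit of each of the 10 other libraries was 901 to 1350 bp from an end. At Vsx1, a bipolar cell factor, the nearest summits lay 1303 and 1306 bp upstream of the start, and both of its regions within 5 kb were restricted. Prdm1 itself had 5 regions in its span and 5 kb around it, 1 of them restricted, with nearest summits 1047 and 207 bp from an end.

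In phototransduction, 9 of 31 genes (29.0%) were bound in photoreceptor precursors, beside 9.68% of all genes. In plasmablasts it was 5 (16.1%), beside 39.7% of all genes, and in d2 PGCLC 0, beside 8.41%. In each of the others it was 1 (3.23%), beside 5.79% to 9.72%. The 7 bound in photoreceptor precursors only were Grk1 (a receptor kinase of rods), Gucy2e, Guca1b (a guanylate cyclase activator), Pde6a and Pde6b (the catalytic subunits of rod phosphodiesterase), Cngb3 (the cone channel's beta subunit) and Slc24a1 (the rod sodium, calcium and potassium exchanger). At Grk1 the summits lay 250 and 290 bp upstream of the start, both of its regions were restricted, and the nearest summit of another library was 10053 bp away. At Slc24a1 both libraries had the summit 54 bp upstream. A summit of 1 other library lay within 1 kb of Gucy2e and of Slc24a1, and of 2 other libraries within 1 kb of Pde6a. Gnb3 and Rgs9bp were bound in 2 and 4 cell types. Recoverin (Rcvrn) had its nearest summits 3497 and 2247 bp from an end. The 1 region bound within 5 kb of its ends was not restricted, and 9 other libraries had a summit within 5 kb.

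For the outer segment, cilium and matrix, 11 of 30 genes (36.7%) were bound, beside 9.68% of all genes. Abca4, Cep290, Kcnv2, Mak, Prph2, Rbp3 and Rp1l1 were bound in photoreceptor precursors only. Cep290 had summits of 3 other libraries within 1 kb of an end and Rp1l1 of 1. At Cep290 and Rp1l1 no region bound in photoreceptor precursors lay within 5 kb of an end, so the libraries' summits lay in separate regions. Prph2 and Rbp3 had 3 restricted regions each within 5 kb of their ends. Mak, a kinase of the connecting cilium, had summits 834 and 749 bp downstream of its start and 3 restricted regions. Rom1, the partner of peripherin 2, was bound in 2 cell types, with summits 90 and 26 bp downstream. Reep6 was bound in all 6 cell types. Of the ribbon synapse genes 7 of 24 (29.2%) were bound, of which Cacna2d4, Cplx3, Cplx4, Rims2 and Syt1 in photoreceptor precursors only. Cplx3 had summits of 3 other libraries within 1 kb of an end and Rims2 of 1. At Rims2 the summits of the 2 photoreceptor precursor libraries lay in separate regions. At Syt1, a calcium sensor of vesicle release, the summits lay 131 and 10 bp upstream, and its span with 5 kb around it held 6 regions, 2 of them restricted.

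**Figure D3:**
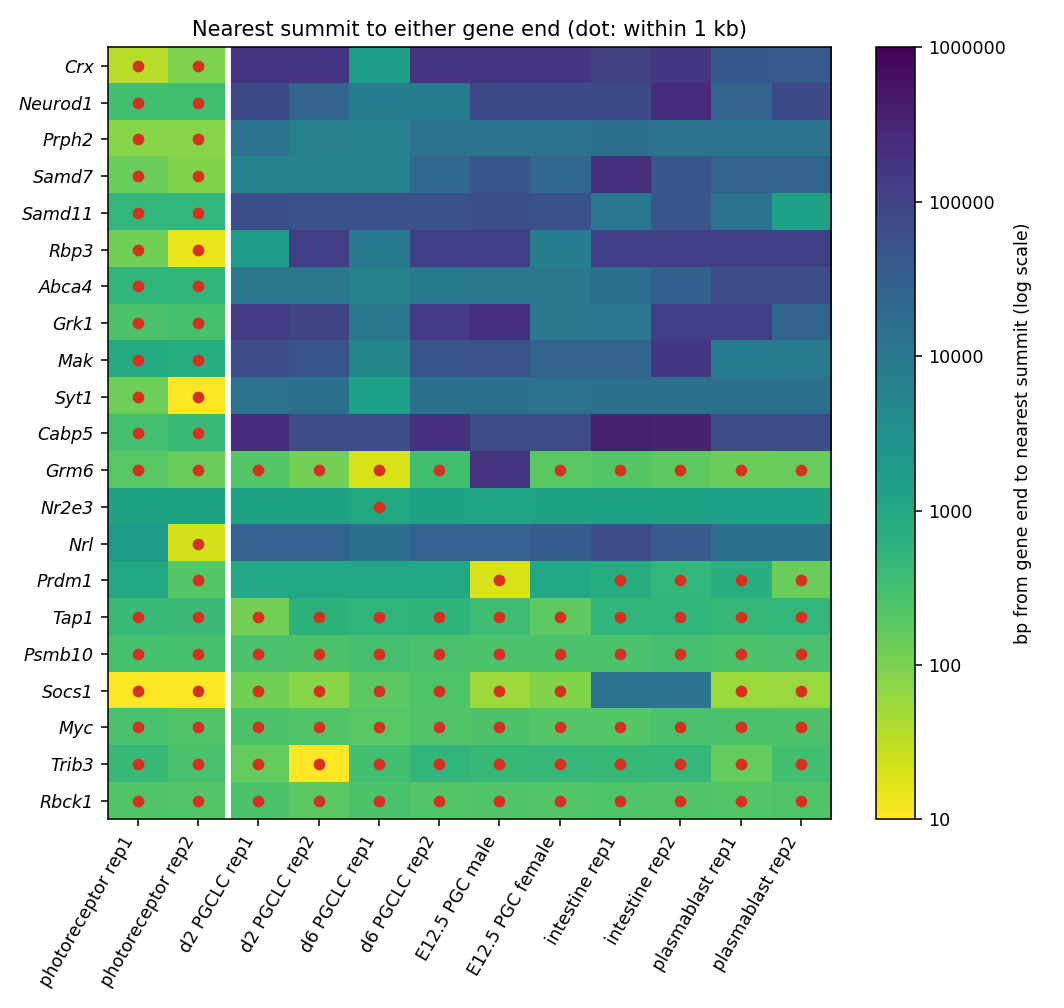
Distance from either gene end to the nearest summit (colour, log scale in bp) for 21 named genes in each of the 12 libraries, with a red dot where it was within 1 kb. The 11 genes from Crx to Cabp5 have dots in both photoreceptor precursor libraries (left of the white line) and in no other, and Tap1, Psmb10, Myc, Trib3 and Rbck1 have dots in all 12.

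Marker genes of other retinal cells were also bound in photoreceptor precursors, for several lists in numbers that other cell types reached too. The counts were 5 of 30 (16.7%) for bipolar cells, 8 of 26 (30.8%) for retinal progenitors and 4 of 26 (15.4%) for amacrine and horizontal cells. For ganglion cells it was 2 of 18 (11.1%), for Müller glia and astrocytes 4 of 20 (20%) and for endothelium and microglia 0 of 20, beside 9.68% of all genes. In the other cell types bipolar genes were bound at 0 to 4, and progenitor genes at 1 to 12. Amacrine and horizontal cell genes were bound there at 1 to 4, ganglion cell genes at 0 to 2 and Müller glia and astrocyte genes at 3 to 8. Of all genes, plasmablasts had 39.7% bound and the other 4 cell types 5.79% to 9.72%. Among the bipolar genes Cabp5, a calcium-binding protein of rod bipolar cells, had summits 303 and 414 bp from an end with no other library within 5 kb. These summits lay near its 3′ end, 10429 and 10318 bp downstream of a listed start. Bhlhe22, Gpr179 and Irx6 were bound in no other cell type, but 2 other libraries had a summit within 1 kb of Bhlhe22, whose region was not restricted, and 1 within 1 kb of Irx6. At Gpr179 the summits lay beyond the 3′ end, 20736 and 20750 bp downstream of a listed start. Summits of 7 other libraries lay within 5 kb of the ends of Gpr179. Grm6 was bound in 5 cell types. Of 21 bound regions in the span and 5 kb around bipolar genes 16 (76.2%) were restricted, beside 6 of 23 (26.1%) for progenitor genes. Pigment epithelium markers were bound at 4 of 12 (33.3%), and at 0 to 3 in the other cell types. Of the 4, Rgr and Tyrp1 had no other library within 5 kb. Binding at a cell type's markers does not show that such cells were in the sort, and whether any were was not tested.

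**Figure D4:**
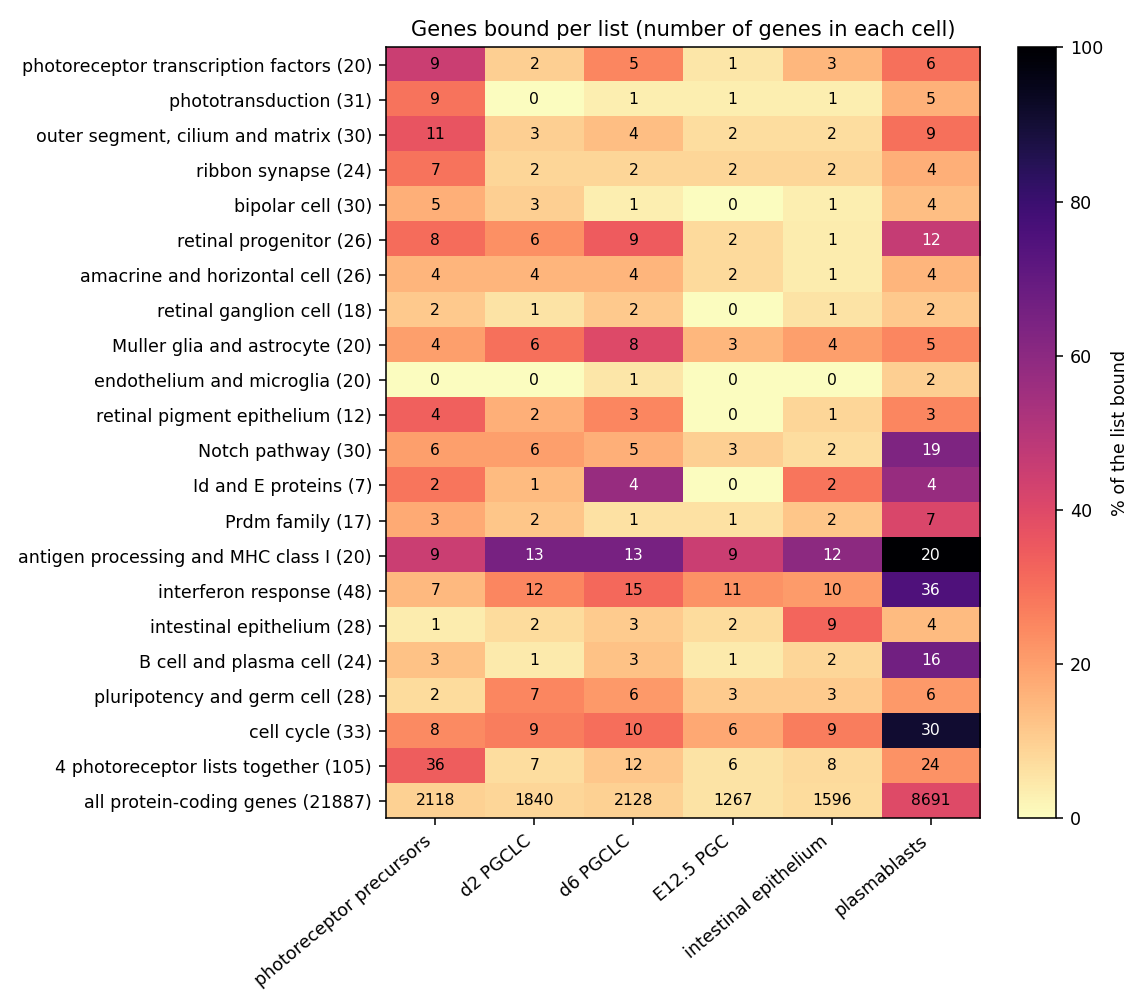
Genes bound in each cell type for 20 lists, for the 4 photoreceptor lists together and for all protein-coding genes, with colour for the percentage of the list, the count of genes in each cell and the list size in brackets. The 4 photoreceptor lists together were bound at 36 genes in photoreceptor precursors and 24 in plasmablasts. In the germ-lineage cells and intestinal epithelium it was 6 to 12. Of all genes, 9.68% were bound in photoreceptor precursors, 39.7% in plasmablasts and 5.79% to 9.72% in the others. The list for antigen processing and MHC class I was bound at 9 to 20 genes in every cell type.

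Genes of general function were bound in photoreceptor precursors together with other cell types. Of 20 genes for antigen processing and MHC class I, 9 (45%) were bound in photoreceptor precursors, beside 9.68% of all genes, and none in photoreceptor precursors only. In plasmablasts it was 20 of 20, beside 39.7% of all genes, and in the other cell types 9 to 13, beside 5.79% to 9.72%. Tap1, the peptide transporter, had summits 419 and 385 bp from an end, 3 regions, and summits of all 10 other libraries within 1 kb. Psmb10, an immunoproteasome subunit, had them 280 and 284 bp downstream of the start, and was bound in all 6 cell types. Of 48 interferon response genes 7 (14.6%) were bound, beside 9.68% of all genes, against 36 (75%) in plasmablasts and 10 to 15 in the other cell types. Differences between cell types were not tested. Among the 7 was Socs1, the inhibitor of cytokine signalling, with summits 4 bp downstream of the start and at the start. Socs1 was bound in 5 cell types, all but intestinal epithelium. Myc and 7 other cell cycle genes of 33 (24.2% of the list) were bound, beside 9.68% of all genes, none of them in photoreceptor precursors only.

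Notch pathway genes were bound at 6 of 30 (20%; Adam10, Hes6, Hey1, Maml2, Maml3 and Numbl), beside 9.68% of all genes, and by the span with 5 kb around it at 17 (56.7%), beside 21.9%. In plasmablasts 19 of 30 (63.3%) were bound, beside 39.7%. Hes1, the main Notch effector of progenitors, was not bound in photoreceptor precursors, with nearest summits 1305 and 77695 bp from an end. It was bound in 4 other cell types, and 9 other libraries had a summit within 1 kb. Of the Id and E proteins Tcf3 and Tcf12 were bound, Id1 had its nearest summits 67403 and 67398 bp from an end, and Id3 had summits 8494 and 8532 bp upstream. Lists for the fates of the other cells were bound at 1 of 28 genes (intestinal epithelium), 3 of 24 (B and plasma cells) and 2 of 28 (pluripotency and germ cells), counts too near the 9.68% of all genes to say anything particular of these lists.

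The genes with the most regions near their ends were Trib3, a pseudokinase of the stress response, with 6, and Casz1 with 5. Bcl9l, Dcc, Rbck1, Mycn, Insm1, Mex3b, Paqr3 and Pou3f2 had 4 each. Trib3 and Rbck1 are neighbours on chromosome 2, and the 4 regions counted at Rbck1 were among the 6 counted at Trib3. All 6 regions at Trib3 had a summit of another cell type and the gene was bound in all 6. At Dcc, the netrin receptor, 4 of the 5 regions in its span and 5 kb around it were restricted. Insm1, a zinc-finger factor of newborn neurons, had none restricted among 4. Among genes bound in all 6 cell types Rbck1, Mex3b and Spry2 had 4, 4 and 3 regions.

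Counted over the whole span, long genes led: Gse1 held 18 regions (9 restricted), Casz1 and Zfp536 11 each (6 and 7), Auts2 10 (8) and Zfhx3 9 (2). All 8 regions of Nrxn3, a presynaptic adhesion molecule, were restricted, and at Ntm and Igsf21 it was 6 and 5 of 8. Longer spans hold more regions, and these counts carry no correction for length.

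Among the 10 highest-ranked genes with no other cell type within 5 kb were Prph2, Samd7, Neurod1, Grk1, Mak, Cdh2, Gpm6b, Adgrl3 and Gpr119. Of all 44 such genes, 10 were in the photoreceptor lists and 1 in the bipolar list. Cdh2, the neural cadherin, had its summits 181 and 182 bp from an end, and both regions in its span and 5 kb around it were restricted. Gpr119 had its summits 882 and 884 bp from an end, beyond the 3′ end and 7381 and 7383 bp downstream of a listed start.

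The miRNAs of the Mir183 cluster, which are abundant in photoreceptors, were among the bound non-coding genes. Of 1005 miRNA hairpins of the RefSeq table, 26 (2.59%) had a summit of both photoreceptor precursor libraries within 1 kb, and 5 of these had none of another library. Mir96 had its summits 91 and 142 bp from the hairpin and Mir183 had them at 313 and 364 bp, on the minus strand of chromosome 6, while Mir182, in the same cluster, had them 3363 and 2639 bp away. The hairpins of Mir96 and Mir183 share the same summits. Their mature 5p sequences are shown with the seed (bases 2 to 8) in capitals. The 3 seeds all differ, so no pair of these miRNAs shares a whole seed.

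miR-183-5p: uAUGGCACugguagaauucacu

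miR-96-5p: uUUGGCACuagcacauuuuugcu

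miR-182-5p: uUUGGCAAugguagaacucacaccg

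Bound regions also came in chains and at long distance from genes. Chains of 3 or more regions, each at most 5 kb from the next, numbered 104, and the longest had 6 regions over 10202 bp (chr7:121620154-121630356), 2 of them restricted and 2 bound in all 6 cell types. At Kdm6b and Dnah2 a chain of 5 regions over 9041 bp held none restricted. Of the 7868 regions, 39 lay over 1 Mb from any protein-coding gene, of which 10 were restricted and 12 bound in all 6 cell types. The farthest was 1905221 bp from Tenm3 and had summits in 4 cell types, and the next 4 had summits in all 6.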

How the data were processed

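For each of the 12 ChIP libraries the authors deposited a list of summit positions (chromosome and position, no score), an other kind of unit than counts or signal. The submitters' processing notes name MACS2 2.1, Bowtie 1.1.2 and, for reads, cutadapt 1.7.1 under Trim Galore 0.3.7, on build mm10. Threshold, control, read depth and the counting base are not given in the sources used here; positions may be off by 1 bp. The input library was not analysed here.

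Summits on chromosomes 1 to 19, X and Y were merged at a gap of at most 200 bp with Python 3.11.15, numpy 2.4.6, pandas 2.3.3 and scipy 1.17.1, and compared with RefSeq genes and promoter windows of GRCm38.p6. Strand was listed for 79.9% of protein-coding genes, so gene ends took the place of the planned starts, and listed starts were an alternative. Shares per library were compared by exact permutation tests with Benjamini-Hochberg adjustment. The scripts were tested on simulated data. Genes were named from a list of 17, from rankings of 10 (regions near ends, no other cell type within 5 kb, regions in the span, all 6 cell types) and as up to 6 bound members of each list. Other list members, and the genes whose promoter sequences are shown, were chosen after their values were seen. The members and lists were chosen with earlier results of these data known. Alternatives were the gap, either library, other windows, all gene kinds, somatic libraries, a replicate block and each library left out. A few genes that this rule names are not reported here.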

Additional observations from a re-analysis of the deposited data

How the results depend on the processing

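Of the values recomputed for the comparisons, 105 stayed, 53 moved and 1 reversed. Of those for the 20 single gene lists, 73 stayed and 47 moved. A count stayed if within 1.5 times, and a share if inside the 95% interval. A permutation test stayed if its sign and its side of 0.05 held. With 1 photoreceptor precursor library left out, or somatic libraries only, no test could fall below 0.05. Leaving out a library of another cell type cannot change the regions bound in photoreceptor precursors. These values are among the 105, which therefore overstates how stable the results were. The reversal was the share of summits near gene ends against somatic libraries only (-4.24 points). With a gap of 50 bp, 5154 regions were bound and 538 in all 6 cell types, and the shares found were 25.3% (d2 PGCLC), 23.4% (d6 PGCLC), 20.3% (intestinal epithelium) and 28.3% (plasmablasts). With 500 bp they were 30.2%, 29.5%, 25.7% (E12.5 PGC), 24.2% and 40.1%. With a summit in either library, 16708 regions were bound, 8133 restricted and 2150 in all 6, 3736 genes were bound, the shares found were 38.002%, 47.1%, 34.8%, 32.9% and 41.8%, and the motif shares 16.2% (TAATCC, photoreceptor-only) and 22.3% (GAAAGT). The share near gene ends was 17.96% at 500 bp, 29.2% at 2 kb, 37.3% at 5 kb and 28.7% with all gene kinds. At 5 kb 3386 genes were bound, and in the 4 lists 70 by span.

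Leaving out each library in turn gave 7868 to 13817 bound regions, 3430 to 6671 restricted, 1102 to 1188 in all 6, 2671 to 3183 genes and 38 to 47 list genes. The shares found were 19.7% to 36.0% (d2 PGCLC), 18.7% to 44.9% (d6 PGCLC), 16.54% to 32.1% (E12.5 PGC), 15.1% to 30.0% (intestinal epithelium) and 27.7% to 38.5% (plasmablasts), and the share near ends 23.3% to 24.0%. The tested differences were 3.41 to 5.26, -1.77 to -0.968 and 1.43 to 2.55 points. TAATCC was in 7.78% to 8.10% of photoreceptor precursor windows and 17.6% to 18.7% of photoreceptor-only windows, GAAAGT in 24.9% to 26.4% and 10.7% to 11.5%.

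With a replicate block, E12.5 PGC left out, the differences were 2.62, -1.47 and 3.08 points (exact permutation p = 0.64, 0.48 and 0.16, smallest possible 0.04). Whether the replicate numbers pair the libraries was not settled. The gene-level deviations of replicate 1 had no correlation over 0.1 in any of 10 pairs of cell types (-0.204 to 0.0366). These deviations also depend on the unequal lengths of the lists, so the measure cannot exclude a pairing. Adding listed starts, and using genes with 1 listed window (TAATCC 36.4%, GAAAGT 20.5% of photoreceptor-only windows), were chosen after seeing the data.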
